A study of Mus musculus with 7 samples.

Results

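The genes described are the 9 members of the Janus kinase (JAK) and signal transducer and activator of transcription (STAT) families with the symbols Jak1, Jak2, Jak3, Tyk2, Stat2, Stat3, Stat4, Stat5a and Stat6. They were taken by symbol from a table of 48440 genes and from a table of 55352 genes, and each symbol had a row in both. All 9 passed the filter on low values in both tables, as did 17854 genes of the first table and 11218 genes of the second. They were picked by symbol and not by a measured value. The study asked how Shisa3, a gene described by the authors as a tumor suppressor, acts in bone marrow-derived macrophages (BMDMs), and sequenced their RNA in 2 experiments with 7 samples in all. BMDMs are grown from mouse bone marrow, here of wild-type C57BL/6 mice with M-CSF, the growth factor that turns marrow cells into macrophages. In the first experiment BMDMs were taken unstimulated (0 h) or after LPS, the endotoxin of Gram-negative bacteria, at 100 ng per mL and harvested at 2 h or 4 h. Each of these time points is a lone library. The second experiment used an adeno-associated virus, left on the BMDMs for 48 h, that carried GFP (AAV-GFP, 2 samples) or Shisa3 (AAV-Shisa3, 2 samples). The samples of both groups thus carried a virus, the inserts were driven by the broadly active CAG promoter, and no untransduced sample belongs to that experiment. The labels do not say whether the 2 samples of a group came from separate mice or cultures, so p-values measure only the spread between these samples, which may be technical.

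JAKs are tyrosine kinases that sit on the inner side of cytokine receptors. When a cytokine joins the receptor chains, the JAKs phosphorylate each other and the receptor, STAT proteins dock, are phosphorylated in turn, pair up and enter the nucleus to switch on target genes. In macrophages LPS sets off the secretion of type I interferon, IL-6 and IL-10, which then act on the same cells through this pathway, and its own targets include the SOCS proteins that shut it down. Transcript levels of JAKs and STATs say nothing about their phosphorylation, which RNA sequencing does not measure.

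The LPS libraries held 15588502 reads (0 h), 7263258 reads (2 h) and 32659392 reads (4 h), recovered as whole counts, and the depth of the AAV samples is unknown because the deposited values keep no counts. Macrophage identity was checked with 12 marker genes, all measured in both experiments, whose summed level ranged from 39886 to 44067 TPM, a transcript level corrected for gene length and depth, in the AAV samples, of which Lyz2 alone gave 26378 to 29528 TPM. The macrophage colony-stimulating factor receptor Csf1r was at 1499 to 1975 TPM and Adgre1, which encodes F4/80, at 2538 to 2920 TPM. In the LPS libraries the 12 summed to 344269, 391089 and 351876 scaled counts at 0 h, 2 h and 4 h, of which Lyz2 gave 242489, 224263 and 209164. At 4 h 3 of 12 were at least 2-fold higher and 0 lower, against 22.2% and 23.6% of all genes kept. These were Marco (52.4-fold, from 32 reads), Fcgr1 (11.1-fold) and Cd14 (6.16-fold). Between the AAV groups 1 of the 12 passed the threshold, near the 6.33% of all genes tested that did. This was Cd14, a co-receptor for LPS, at 735 and 712 TPM in AAV-GFP and 1199 and 1282 TPM in AAV-Shisa3 (log2 difference 0.78, limma, adjusted p = 0.0153). The part of Cd14 in other results was not tested. No macrophage marker passed without the trend, with no filter on low values or with any 1 of the 4 samples left out. The T cell markers Cd3e, Cd3g and Trbc2 and the NK cell markers Ncr1, Gzma and Eomes were listed at 0 in all 7 samples, and Cd3d and Cd2 had 1 read each at 4 h and were listed at 0 elsewhere. Other markers were detected. Cd4 had 197, 113 and 170 reads at 0 h, 2 h and 4 h and 5.76 to 10.39 TPM in the AAV samples. Cd8a had 2, 0 and 12 reads, and the NK cell marker Klrd1 had 12, 2 and 2 reads. The summed level of the 10 T cell markers listed was 786 to 882 scaled counts in the LPS libraries, but its members moved in opposite directions. Il7r was at 752, 325 and 435 scaled counts at 0 h, 2 h and 4 h, Lck had 1, 82 and 524 reads, and Cd247 had 0, 16 and 115 reads. Their part in the values of Jak3 and Stat4 was not tested. In bulk RNA a smaller number of cells of a type and less RNA per cell cannot be told apart. Shisa3, the gene delivered by the virus, was at 7.88 and 10.85 TPM in AAV-GFP and at 12.31 and 17.81 TPM in AAV-Shisa3. It was higher in both AAV-Shisa3 samples than in either control, by 0.63 ± 0.218 (SE, n = 2 against 2) on the log2(TPM + 1) scale, and this difference did not pass the test (limma, adjusted p = 0.138).

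After LPS, Jak2, Stat2, Stat3 and Stat5a stood out among the 9 members. Jak2 reached 29.6 times its starting value at 4 h, Stat2 9.15 times and Stat3 6.38 times, and Stat5a was 14.4 times its starting value at 2 h and 7.23 times at 4 h. Jak1, Jak3 and Tyk2 were between 2.01 and 2.67 times their starting values at both times. Stat4 could not be told from its starting value at 2 h within counting error, and Stat6 was the only member below its starting value at 4 h. By the authors' values 7 of 9 members were at least 2-fold higher at 2 h, where 20.5% of all genes kept were, and 7 of 9 at 4 h, against 22.2% of all genes. No member was at least 2-fold lower at either time, against 24.7% of all genes at 2 h and 23.6% at 4 h. Since each time point had 1 library, nothing is known of the error between replicates, no test was made, and the intervals given with them are 95% intervals that cover counting error only.

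The scale of the libraries matters for the smaller of these differences. The authors divided the reads by 1 factor per library, under which the median log2 difference of all genes kept was -0.05 at 2 h and -0.04 at 4 h. Scaling the same reads to equal library totals moved that median to -0.71 at 2 h and to -0.83 at 4 h. On that scale 4 of 9 members, namely Jak2, Stat2, Stat3 and Stat5a, were at least 2-fold higher at each time, against 13.3% of the 17935 genes kept on that scale at 2 h and 12.8% at 4 h. Stat6 alone, 1 of 9, was at least 2-fold lower at 4 h, against 44.5% of all genes. Both folds are therefore given for each member.

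**Figure D1:**
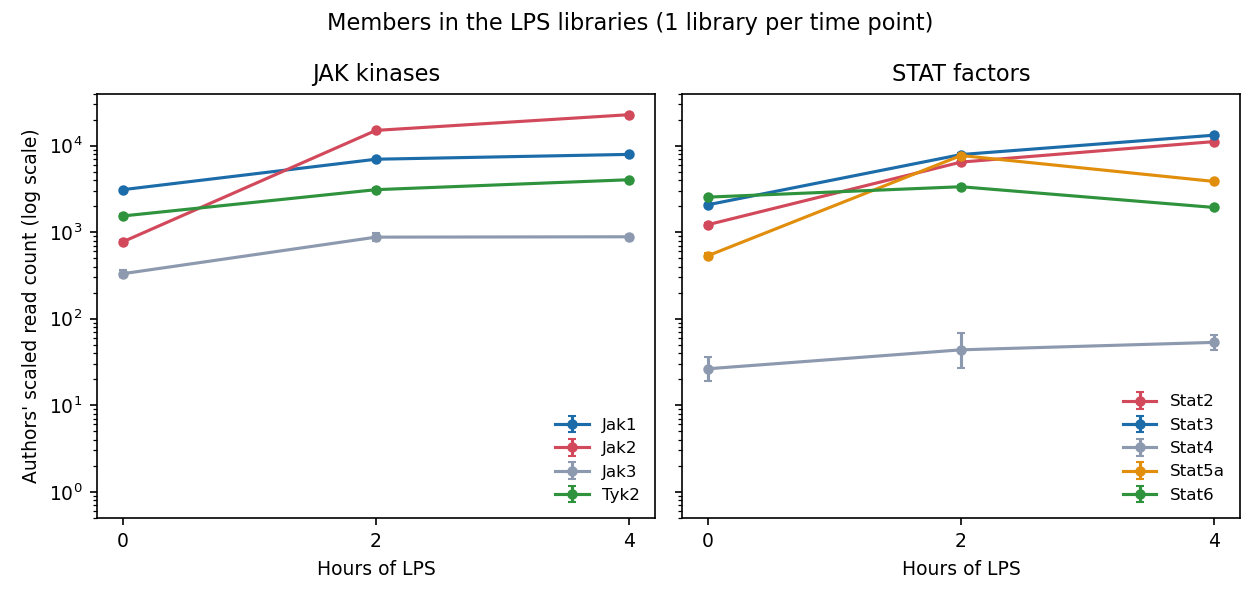
The authors' scaled read count of each member (y axis, log scale) is plotted against hours of LPS (x axis), JAK kinases on the left and STAT factors on the right, 1 library per point, with error bars for the 95% counting interval. Jak2 climbs from 770.6 to 22775 and overtakes Jak1, Stat5a peaks at 2 h, and Stat4 reaches 53.3 scaled counts at most.

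Among the kinases, Jak2 serves receptors for hematopoietic cytokines such as GM-CSF, for interferon-γ and for IL-12. It is encoded at chr19:29251828-29313080 (GRCm38, plus strand). Its scaled count was 770.6 at 0 h, 14987 at 2 h and 22775 at 4 h, from 1198, 6863 and 41912 reads. The values at 2 h and 4 h were far above that at 0 h, by 19.4-fold (18.3 to 20.7) and 29.6-fold (27.9 to 31.3), and still by 12.3-fold and 16.7-fold with equal library totals. Its log2 difference at 4 h was larger than that of 98.7% of all genes kept, which placed it at rank 233.

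Jak1 works with the receptors for type I and type II interferon and for the IL-6 and IL-10 families (chr4:101152367-101265282, minus strand). Its scaled count was 3093 at 0 h, 6959 at 2 h and 7916 at 4 h, a 2.25-fold (2.15 to 2.35) and a 2.56-fold (2.48 to 2.64) difference from 0 h that shrank to 1.42-fold and 1.45-fold with equal library totals. Tyk2, the partner of Jak1 on the type I interferon and IL-10 receptors (chr9:21104068-21131243, minus strand), was at 1537, 3096 and 4034. It was 2.01-fold higher at 2 h and 2.62-fold higher at 4 h, or 1.27-fold and 1.48-fold with equal library totals. Jak3, which binds the common gamma chain of the receptors for IL-2 and related cytokines and is most abundant in lymphoid cells (chr8:71676296-71690575, plus strand), was at 330.6, 875.7 and 884.1. Its 2 h and 4 h values differed by less than their counting intervals, the ratio being 1.01 (0.905 to 1.13), and both were above that at 0 h, by 2.65-fold and 2.67-fold, or 1.67-fold and 1.51-fold with equal library totals. These 3 kinases thus moved close together, and between 79.7% and 84.5% of all genes kept had smaller log2 differences than they had at either time.

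Stat2 joins Irf9 and a second STAT in ISGF3, the complex through which type I interferon acts (chr10:128270559-128292849, plus strand). Its scaled count was 1217 at 0 h, 6448 at 2 h and 11139 at 4 h. It was 5.30-fold (5.00 to 5.62) and 9.15-fold (8.73 to 9.60) higher than at 0 h, and 3.35-fold and 5.17-fold higher with equal library totals. Stat3, the factor activated by IL-6 and IL-10 (chr11:100885098-100939540, minus strand), had values of 2068, 7881 and 13203. It was 3.81-fold (3.63 to 4.00) and 6.38-fold (6.15 to 6.63) higher, or 2.41-fold and 3.61-fold with equal library totals. Stat2 and Stat3 went on from 2 h to 4 h by similar steps, of 1.73-fold (1.66 to 1.80) and 1.68-fold (1.62 to 1.74), whose intervals overlap.

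Stat5a, a factor used by GM-CSF and IL-3 signaling, followed another course (chr11:100859351-100885169, plus strand). Its scaled count was 532.6 at 0 h, 7682 at 2 h and 3851 at 4 h, from 828, 3518 and 7087 reads. It was 14.4-fold (13.4 to 15.6) and 7.23-fold (6.73 to 7.78) higher than at 0 h, or 9.12-fold and 4.09-fold with equal library totals. It was thus the only member other than Stat6 with a lower value at 4 h than at 2 h under the authors' scaling, and the ratio of the 4 h to the 2 h value was 0.501 (0.481 to 0.522). On the log2(value + 1) scale that step was -0.996, which is just inside a 2-fold difference, and 0 of 9 members were 2-fold higher or lower at 4 h than at 2 h, against 17.9% and 15.2% of all genes. With equal library totals the ratio for Stat5a was 0.448, and 1 of 9 members was then past 2-fold, against 17.5% of all genes that were lower on that scale. Stat5a has a near-identical paralogue next to it, and how reads that fit both were counted is not given in the sources used here, so its values are uncertain to that extent.

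Stat6 carries the IL-4 and IL-13 signal that drives the alternative macrophage program (chr10:127642986-127660957, plus strand). Its scaled count was 2539 at 0 h, 3348 at 2 h and 1927 at 4 h. The ratio to 0 h was 1.32 (1.24 to 1.40) at 2 h and 0.759 (0.725 to 0.795) at 4 h. With equal library totals these ratios were 0.834 and 0.429, so that its direction at 2 h turned with the scaling while its value at 4 h was below the start under the authors' scaling, equal totals, TMM factors and centring on library medians, where it was -0.026 on the log2 scale. Its log2 difference at 4 h was larger than that of only 38.6% of all genes kept, the lowest place among the 9 members.

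Stat4, which relays IL-12 and type I interferon signals mainly in T and NK cells, was the scarcest member (chr1:51987148-52107189, plus strand). Its scaled count was 26.4 at 0 h, 43.7 at 2 h and 53.3 at 4 h, from 41, 20 and 98 reads. The ratio to 0 h was 1.66 (0.919 to 2.89) at 2 h, an interval that takes in no difference, and 2.02 (1.39 to 2.98) at 4 h, which is 0.99 on the log2(value + 1) scale and so just under the 2-fold threshold. With equal library totals the ratios were 1.05 and 1.14. The gene lies over a same-strand transcript, Gm28177, with which it shares 1033 exon bases and to which 1701, 1956 and 14886 reads were assigned, so a small shift in how shared reads are assigned would change Stat4.

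**Figure D2:**
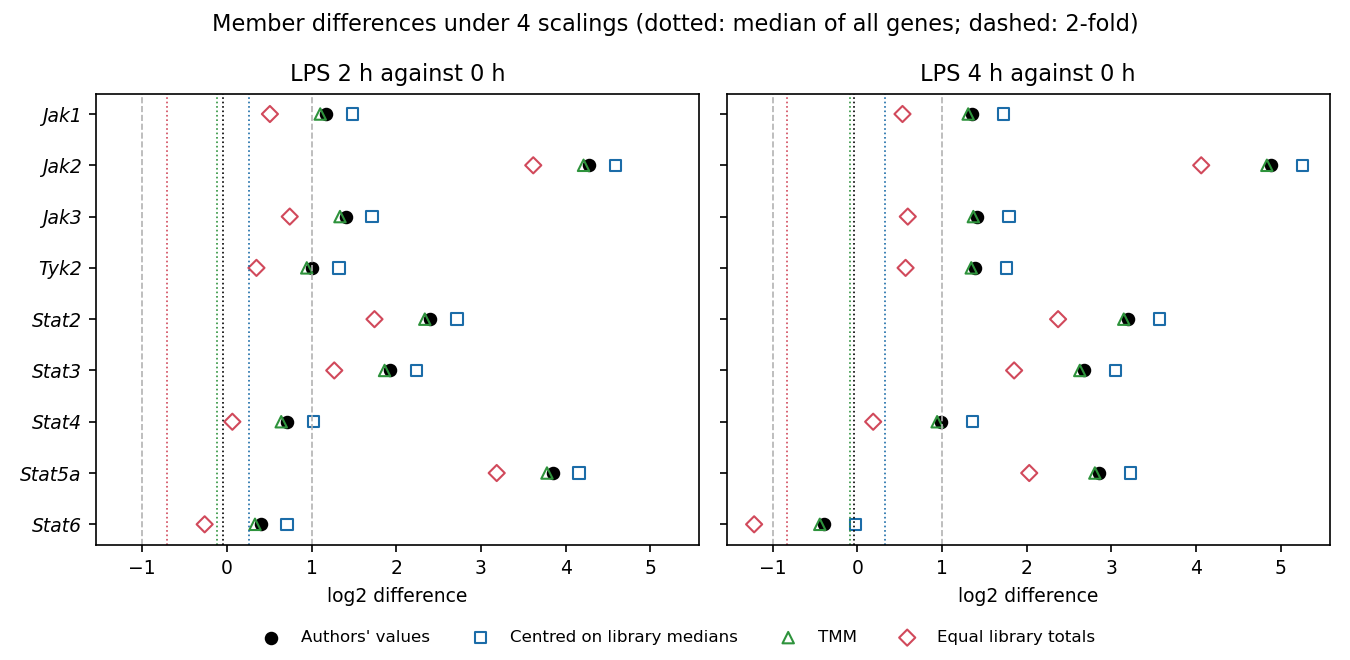
The log2 difference of each member at 2 h (left) and 4 h (right) against 0 h (x axis) is drawn under 4 scalings of the libraries, with dotted lines at the median of all genes under each scaling and dashed lines at 2-fold. Jak2, Stat2, Stat3 and Stat5a lie beyond 2-fold under all 4, and equal library totals pull every member to the left together with the median.

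The other overlaps between members and neighbouring genes were small. Stat3 and Stat5a are transcribed towards each other and share 72 exon bases on opposite strands, and Stat6 shares 40 exon bases with Nab2 on the opposite strand. Jak3 shares 404 exon bases with Insl3 on the same strand, to which 25, 8 and 39 reads were assigned. Tyk2 shares 554 exon bases with the antisense gene 1700084C06Rik, to which 1, 0 and 1 reads were assigned. Whether the counting used strand is not given in the sources used here, so reads in these stretches cannot be placed on 1 gene with certainty.

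Within a library the make-up of a family does not depend on the scaling between libraries. For this purpose reads were divided by the gene's merged exon length and brought to the same total in every library, a per-length level for setting genes side by side. The merged length counts every annotated exon, whether or not it is expressed, so the order of genes also depends on the annotation. The counting intervals do not cover that error. At 0 h the order of these levels among the kinases was Jak1 (94.9), Tyk2 (49.6), Jak2 (34.0) and Jak3 (13.7), and no neighbours in that order had overlapping counting intervals. At 2 h Jak2 (359) was first, followed by Jak1 (116), Tyk2 (54.4) and Jak3 (19.7), and at 4 h the order was the same, with levels of 595, 144, 77.2 and 21.7. The share of Jak2 in the summed per-length level of the 4 kinases thus went from 17.7% to 65.4% and 71.0%. The share of Jak1 went from 49.4% to 21.1% and 17.2%, that of Tyk2 from 25.8% to 9.90% and 9.22%, and that of Jak3 from 7.13% to 3.59% and 2.59%. Jak1 thus had the largest share of the 4 kinases in unstimulated BMDMs, and Jak2 had most of their summed level at 2 h and 4 h of LPS.

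Among the 5 STAT genes, Stat6 had the highest per-length level at 0 h (128), followed by Stat3 (48.1), Stat2 (45.5), Stat5a (16.6) and Stat4 (1.51). Stat3 and Stat2 did not differ beyond counting error there, with intervals of 46.5 to 49.8 and 43.5 to 47.6. At 2 h Stat2 (131) and Stat5a (130) came first with overlapping intervals, ahead of Stat3 (99.7), Stat6 (91.7) and Stat4 (1.36), and the interval of Stat3 (96.5 to 103) lay just above that of Stat6 (87.2 to 96.4). At 4 h the order was Stat2 (247), Stat3 (182), Stat5a (71.0), Stat6 (57.6) and Stat4 (1.81). The share of Stat6 in the summed per-length level of these 5 genes went from 53.4% at 0 h to 20.2% at 2 h and 10.3% at 4 h. That of Stat2 went from 19.0% to 28.9% and 44.2%, that of Stat3 from 20.1% at 0 h to 32.6% at 4 h, and that of Stat5a from 6.91% to 28.6% and 12.7%. Stat6, the highest of the 5 before LPS, was thus behind Stat2, Stat3 and Stat5a at both later times.

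**Figure D3:**
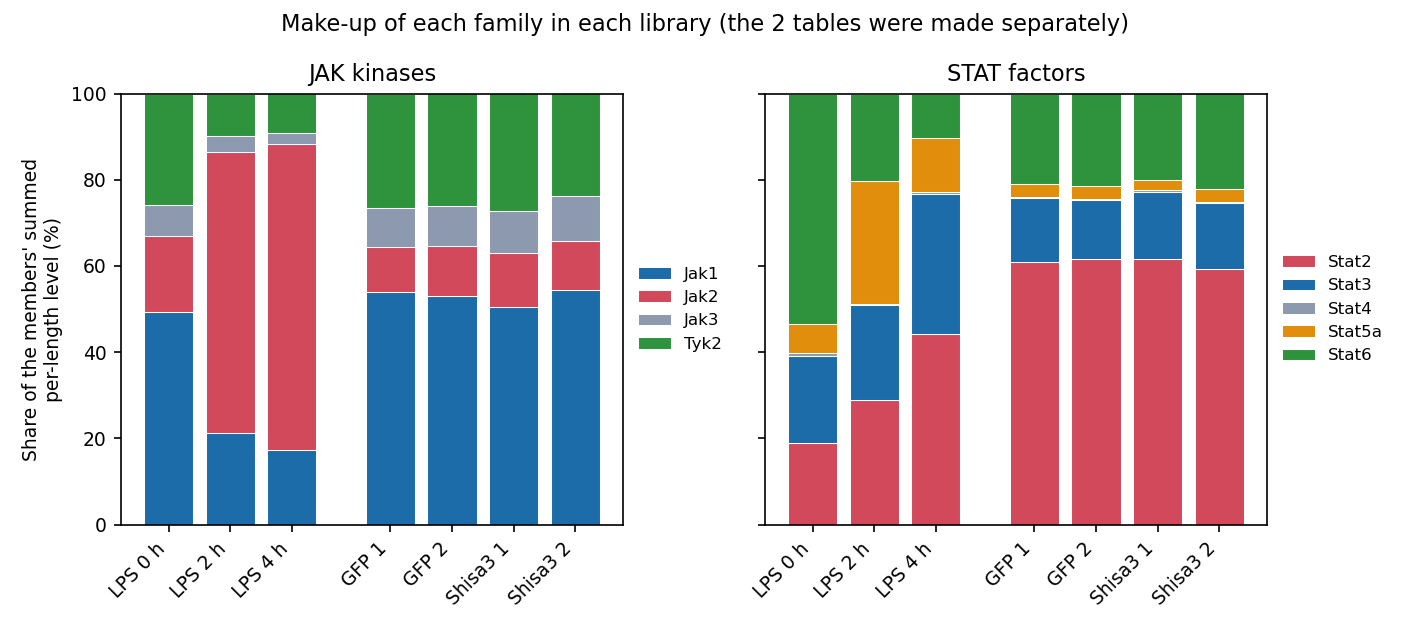
Stacked bars show each member's share, in percent, of the summed per-length level of the 4 kinases (left) and of the 5 STAT genes (right) in each of the 7 samples. Jak2 fills most of the kinase bar at 2 h and 4 h, the Stat6 segment shrinks from 53.4% to 10.3% over the LPS libraries, and the 4 AAV samples look alike.

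The promoters of the members were read to show the sequences around the transcription starts of the genes that moved most. RefSeq gives 11 promoter windows for the 9 members on GRCm38.p6, each from 250 bases before to 50 bases after a start, and 32851 such windows in all. Capitals mark matches to motifs searched on both strands, which were the interferon-response motif (GAAA, 2 bases of any kind and GAAA again), present in 3.44% of all windows, the STAT motif of TTC and GAA with 3 bases between them, in 8.30%, the longer STAT motif with 4 bases between them, in 6.95%, a strict κB site, in 0.155%, and the degenerate NF-κB consensus, in 4.50%. The last was added after the strict κB site had matched no window of a member. The 250 bases upstream of the starts of Jak2, Stat2 and Stat3 and of the second start of Stat5a are shown 5′ to 3′ on the strand of the gene.
Jak2, chr19:29251553-29251802: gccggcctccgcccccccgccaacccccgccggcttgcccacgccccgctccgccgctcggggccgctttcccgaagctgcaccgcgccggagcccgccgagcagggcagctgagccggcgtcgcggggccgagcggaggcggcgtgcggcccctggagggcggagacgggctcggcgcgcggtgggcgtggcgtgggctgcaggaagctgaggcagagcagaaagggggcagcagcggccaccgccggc
Stat2, chr10:128270248-128270497: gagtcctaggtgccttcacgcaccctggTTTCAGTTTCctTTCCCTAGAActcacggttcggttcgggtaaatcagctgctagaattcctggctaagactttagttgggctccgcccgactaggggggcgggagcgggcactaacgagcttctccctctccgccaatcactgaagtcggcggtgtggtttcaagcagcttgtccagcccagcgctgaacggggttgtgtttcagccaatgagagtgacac
Stat3, chr11:100939541-100939790: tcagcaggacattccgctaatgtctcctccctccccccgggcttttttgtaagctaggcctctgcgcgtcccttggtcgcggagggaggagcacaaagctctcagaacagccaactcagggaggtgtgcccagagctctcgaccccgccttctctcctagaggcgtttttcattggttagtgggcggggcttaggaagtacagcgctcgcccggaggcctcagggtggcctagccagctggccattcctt
Stat5a, chr11:100860234-100860483: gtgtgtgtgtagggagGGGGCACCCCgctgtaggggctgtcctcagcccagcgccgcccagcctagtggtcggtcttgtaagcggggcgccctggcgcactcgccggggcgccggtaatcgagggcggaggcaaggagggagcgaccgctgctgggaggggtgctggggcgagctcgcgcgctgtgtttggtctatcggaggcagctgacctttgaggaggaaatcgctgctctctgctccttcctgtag

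Stat2 held the interferon-response motif at -222 to -213 from its start, on the opposite strand, and the longer STAT motif at -210 to -201, next to it. The second start of Stat5a held the degenerate NF-κB consensus at -234 to -225. Of the members with smaller differences, only Stat4 had a match, at -97 to -88 from its second start, where the interferon-response motif lies in the window aatgtcttcaGAAAGTGAAAtttagaacgg (chr1:52008133-52008162). No window of Jak1, Jak2, Jak3, Tyk2, Stat3 or Stat6 held a match, and the window of Jak2 was made up of G and C to 81.0%. A match is a description of the sequence and does not show that a factor binds there, and factors may act outside these windows.

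In the transduced BMDMs none of the 9 members differed between AAV-Shisa3 and AAV-GFP past the threshold (limma's trended test on log2(TPM + 1), Benjamini-Hochberg adjusted p under 0.05). The count was 0 of 9, against 6.33% of the 11218 genes tested, and at an unadjusted p under 0.05 it was 0 of 9, against 28.0% of all genes. All differences of members other than Stat4 lay between -0.26 and 0.13 on the log2 scale, beside a median of all genes of -0.10. The smallest p that an exact two-sided permutation test allows for 2 samples against 2 is 0.333, which is why all genes were fitted together. A difference that misses the threshold does not show that the groups are alike, and the 95% intervals of the differences are given for that reason.

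Of the kinases, Jak1 was at 72.19 and 76.92 TPM in AAV-GFP and at 69.84 and 76.98 TPM in AAV-Shisa3, a log2 difference of -0.02 with an interval from -0.24 to 0.19 (adjusted p = 0.887). Jak2 was at 13.93 and 16.63 TPM in AAV-GFP and at 17.44 and 16.12 TPM in AAV-Shisa3, a log2 difference of 0.13 (-0.18 to 0.44, adjusted p = 0.524). For these kinases the 2 groups overlapped. Jak3 was at 12.03 and 13.66 TPM against 13.53 and 14.81 TPM, with a log2 difference of 0.13 (-0.16 to 0.43, adjusted p = 0.50). Tyk2 was at 35.55 and 37.71 TPM against 37.77 and 33.5 TPM, with a log2 difference of -0.04 (-0.28 to 0.20, adjusted p = 0.818). The groups overlapped for Jak3 and Tyk2 as well, and over the 4 kinases the intervals reached from 0.821-fold for Tyk2 to 1.35-fold for Jak2, as folds of TPM + 1.

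Stat2, Stat5a and Stat6 were lower in both AAV-Shisa3 samples than in both controls without passing the test. Stat2 was at 395.82 and 437.77 TPM in AAV-GFP and at 394.59 and 365.56 TPM in AAV-Shisa3, a log2 difference of -0.13 (-0.34 to 0.07, adjusted p = 0.348). Stat5a was at 18.29 and 21.83 TPM against 14.9 and 18.19 TPM, a log2 difference of -0.26 (-0.62 to 0.09, adjusted p = 0.282). Stat6 was at 136.94 and 152.35 TPM against 128 and 136.34 TPM, a log2 difference of -0.13 (-0.34 to 0.08, adjusted p = 0.374). The gap between the groups was narrow in each of the 3, and 41.2% of all genes tested were lower in both AAV-Shisa3 samples, so 3 of 9 members is no more than the background. No member was higher in both AAV-Shisa3 samples, against 18.2% of all genes.

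Stat3 was at 95.62 and 98.43 TPM in AAV-GFP and at 98.83 and 94.09 TPM in AAV-Shisa3, and its log2 difference of -0.01 had the narrowest interval of the 9 members (-0.19 to 0.18, adjusted p = 0.949). Stat4 was at 2.82 and 1.5 TPM against 3.81 and 2.1 TPM, with the widest interval (0.32, -0.43 to 1.07, adjusted p = 0.524). For Stat3 and Stat4 the groups overlapped. The interval of Stat4 thus reached from 0.742-fold to 2.10-fold of TPM + 1, and at so low a level the range in TPM itself is wider. Its overlapping transcript Gm28177 was at 0 to 0.14 TPM in this table.

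**Figure D4:**
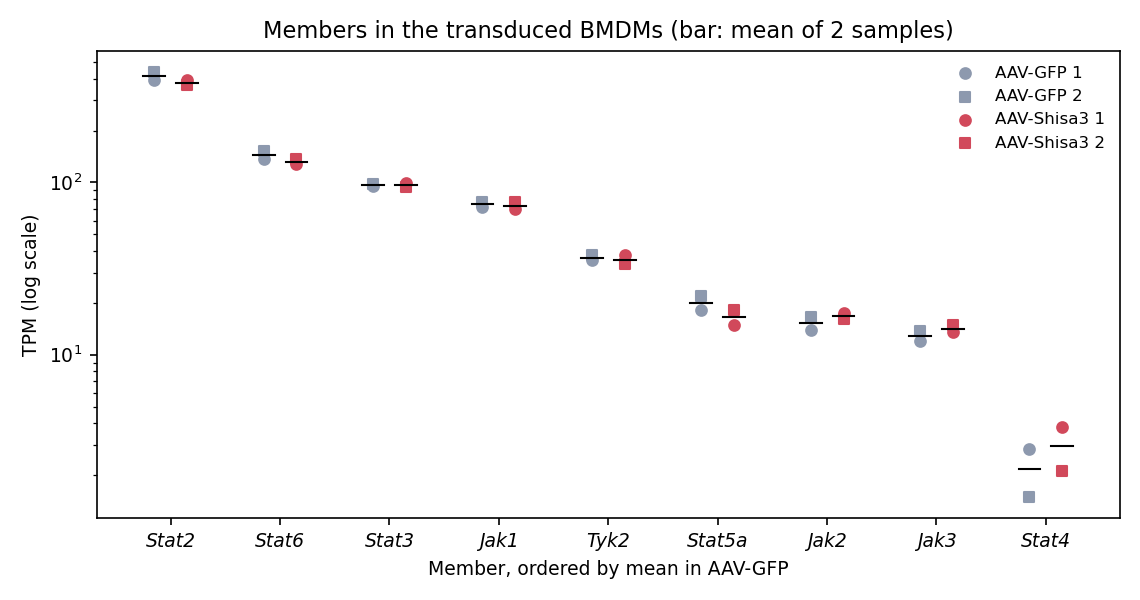
The TPM of each member (y axis, log scale) is plotted for the 2 AAV-GFP samples (grey) and the 2 AAV-Shisa3 samples (red), with bars at the mean of each pair and members in order of their AAV-GFP mean. The pairs overlap or nearly touch for every member, from Stat2 at a mean of 417 TPM in AAV-GFP down to Stat4 at 2.16 TPM.

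The levels of the members in AAV-GFP, as mean TPM ± SD with n = 2, gave the order Stat2 (417 ± 29.7), Stat6 (145 ± 10.9), Stat3 (97.0 ± 1.99), Jak1 (74.6 ± 3.34), Tyk2 (36.6 ± 1.53), Stat5a (20.1 ± 2.50), Jak2 (15.3 ± 1.91), Jak3 (12.8 ± 1.15) and Stat4 (2.16 ± 0.933). Over the 4 samples the neighbours Stat5a (14.9 to 21.83 TPM) and Jak2 (13.93 to 17.44 TPM) overlapped, as did Jak2 and Jak3 (12.03 to 14.81 TPM), although Jak3 was below Jak2 in each sample. Jak1 made up 50.4% to 54.4% of the summed TPM of the 4 kinases, Tyk2 23.7% to 27.3%, Jak2 10.4% to 12.6% and Jak3 9.0% to 10.5%. Stat2 made up 59.3% to 61.6% of the summed TPM of the 5 STAT genes, Stat6 20.0% to 22.1%, Stat3 13.8% to 15.4% and Stat5a 2.33% to 3.07%. Beside the unstimulated library of the LPS experiment, where Stat6 held 53.4% and Stat2 19.0%, the transduced samples of both groups thus had Stat2 in first place. The tables come from separate experiments and processing, so virus, culture and counting cannot be told apart here.

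The genes whose 3 log2 differences (2 h and 4 h of LPS and AAV-Shisa3) were nearest to those of a member were found by Euclidean distance over 9737 genes measured in both tables. For Jak2, with the largest difference at 4 h, they were Ifih1 (distance 0.303), Clic4 (0.308) and Gja1 (0.333). For Stat6, the member with the lowest difference at 4 h, they were Prrc2b (0.0635), Scrib (0.0775) and Vars (0.0976). For Stat4, with the highest AAV difference, they were Zfp407 (0.0561), Plekha3 (0.142) and Fcf1 (0.149). For Stat5a, with the lowest AAV difference, they were Soat2 (0.392), Gramd1a (0.419) and Rnd3 (0.435). The profile of Stat5a had no close match, its nearest gene being farther away than the third nearest gene of Jak2, Stat6 or Stat4.

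The members can be set beside the genes that act above and below them. Of the cytokines that signal through JAKs, 30 were listed and 20 were kept in the LPS table, of which 17 were at least 2-fold higher and 1 was at least 2-fold lower at 4 h, against 22.2% and 23.6% of all genes kept, with a median log2 difference of 3.33 beside -0.04 over all genes. With equal library totals 14 were higher and 1 was lower, against 12.8% and 44.5% of all genes. The lower gene was Il2, with 5 reads at 0 h and 0 at 4 h. Ligands near 0 at 0 h passed the filter on low values only through the LPS libraries, which fixed their direction. Among the 17, this holds for Il12a, Il23a, Csf2, Csf3 and Il19, with 0 reads at 0 h. Il23a had 2 reads at 4 h and Csf2 had 4. Il27, an IL-12 family cytokine, went from 19.9 to 8193 and 7064 scaled counts, 411-fold and 354-fold higher. Il6 went from 7.08 to 1308 and 2197, which rests on 11 reads at 0 h, and Il12b from 8.36 to 3452 and 1800. Il19 and Csf3 had 0 reads at 0 h and were at least 329-fold and 108-fold higher at 4 h, computed against 3 reads per library. Il3, Il5, Il9, Il21 and Il22 had 0 reads in all 3 libraries.

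Of 36 receptor chains 32 were kept, 15 of them at least 2-fold higher and 7 at least 2-fold lower at 4 h, against 22.2% and 23.6% of all genes kept, with a median of 0.92. The number of lower chains was thus near the background. With equal library totals 8 were higher and 8 lower, against 12.8% and 44.5% of all genes, and the median was 0.22 beside -0.83 over all genes, so that the list shifted with all genes and stayed above their median. Il4ra, the chain for IL-4 that acts ahead of Stat6, went from 2360 to 53046 and 49578, which is 22.5-fold higher at 2 h. Its course was thus unlike that of Stat6, which stood at 0.759 times its start at 4 h. Il15ra went from 63.0 to 649 and 1090, Il13ra1 from 237 to 723 and 2164, and Il2ra and Il23r had 0 reads at 0 h and were at least 96.3-fold and 13.5-fold higher at 4 h. The lower chains, named after their values were seen, included those for IL-6, with Il6ra at 0.143 and Il6st at 0.402 times their starts at 4 h. Lifr, which binds LIF, was at 0.151 times, Ifngr1, the interferon-γ receptor chain that carries Jak1, at 0.474 times and Il21r at 0.495 times. Epor and Lepr, from 18 and 8 reads, were the other 2.

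Of 20 negative regulators, 9 were at least 2-fold higher and 4 at least 2-fold lower at 4 h, against 22.2% and 23.6% of all genes kept, with a median of 0.75 beside -0.04 over all genes. With equal library totals 6 were higher and 7 lower, against 12.8% and 44.5% of all genes, and the median was -0.08 beside -0.83. The 4 lower ones, named after their values were seen, were Socs6 (0.292 times its start), Socs5 (0.348 times), Sh2b3 (0.416 times) and Dusp3 (0.465 times). Socs3, which restrains IL-6 family signaling through JAKs, went from 240 to 61361 and 39510, 256-fold and 165-fold higher. Socs1, an inhibitor of interferon signaling, went from 24.4 to 5667 and 2157, and Usp18, which dampens the type I interferon receptor, from 205 to 5601 and 13212. Cish, a SOCS family gene induced through STAT5, went from 9.65 to 1197 and back to 64.7, so that it was 124-fold higher at 2 h and 6.70-fold higher at 4 h, from 15 reads at 0 h. Cish and Stat5a were thus both highest at 2 h, but so were Socs1 and Socs3. Other listed STAT5 targets were higher at 4 h than at 2 h, such as Ccnd2 (1524 and 2374) and Osm (105 and 140). Ptpn1, a tyrosine phosphatase that acts on JAKs, was 5.66-fold and 6.33-fold higher.

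Of 13 partners and cofactors of STATs, 4 were at least 2-fold higher at 4 h and 0 were lower, against 22.2% and 23.6% of all genes kept, and the number higher was not far from the background. The median was 0.53 beside -0.04 over all genes, or -0.27 beside -0.83 with equal library totals. Irf9, the DNA-binding partner of Stat2 in ISGF3, was 2.38-fold and 2.21-fold higher, well below Stat2 itself. Parp14 was 10.4-fold and 11.7-fold higher, Nmi 4.23-fold and 9.18-fold, Parp9 4.56-fold and 8.57-fold and Stam2 1.5-fold and 1.83-fold.

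Genes known as targets of the STATs were higher after LPS in most lists, to be read against 22.2% of all genes kept that were at least 2-fold higher at 4 h and 23.6% that were lower. All 20 ISGF3 targets were at least 2-fold higher at 4 h (19 of 20 with equal library totals), with a median of 5.21, and 10 of 20 were at least 2-fold higher at 4 h than at 2 h, against 17.9% of all genes. They included Cxcl10, at 184-fold, Rsad2, at 127-fold, Oasl1, at 110-fold, Cmpk2, at 85.7-fold, and Isg15, at 83.6-fold at 4 h. Of 18 STAT3 targets 16 were at least 2-fold higher and 1 lower, with a median of 3.27, led by Il1rn (369-fold at 4 h), the IL-1 receptor antagonist, and Socs3, and followed by Il10 (22.8-fold), Il4ra and Pim1, a kinase (21.3-fold at 2 h). The lower one was Vegfa, at 0.222 times its start. Of 8 STAT5 targets 6 were higher and 0 lower, with a median of 2.69, among them Ccnd2 (97.1-fold), Cdkn1a (10.3-fold) and Bcl2l1 (6.78-fold). The 15 STAT6 targets kept were divided, with 5 at least 2-fold higher and 6 at least 2-fold lower and a median of -0.52. This balance depended on the processing, with 5 higher and 8 lower and a median of -1.35 (all genes -0.83) under equal library totals, 6 and 5 and a median of -0.15 (all genes 0.33) under centring, and 5 and 4 of 12 genes and a median of 0.21 with a mean of at least 5. The higher ones included Ccl22 (23.6-fold), Tgm2 (15.9-fold) and Ccl24 (10.3-fold), with Ccl17 starting from 0 reads and Pdcd1lg2 from 2 reads, and Retnla had 0 reads in all 3 libraries. The lower ones, named here after their values were seen, were Irf4 (0.103 times its start), Alox15 (from 9 reads), Clec10a (0.280 times), Pparg (0.290 times), Mgl2 (0.341 times) and Arg1 (from 5 reads). Many of these genes are known targets of NF-κB and other factors too, and the lists do not measure the activity of a STAT.

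In AAV-Shisa3, where no member passed the test, 27 of the 108 pathway genes tested were higher and 3 were lower past the threshold, beside 2.23% and 4.10% of all genes tested. These calls depended on the fit. None of the 108 passed with limma run without the trend or with no filter on low values, and 0 to 4 genes were higher and 0 lower when 1 of the 4 samples was left out. The numbers of higher and lower genes were 33 and 0 with each sample centred on its median, 26 and 3 with a pseudocount of 0.1 and 30 and 7 with at least 1 TPM in every sample.

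Of the 10 ligands tested 3 rose and 0 fell, beside 2.23% and 4.10% of all genes tested. Their median log2 difference was 0.56 beside -0.10 over all genes. Il27 was at 3.67 and 5.25 TPM in AAV-GFP and at 12.03 and 12.69 TPM in AAV-Shisa3, a rise of 1.31 (limma, adjusted p = 0.0231). Il10 went from 30.24 and 34.31 up to 56.79 and 53.22 TPM, by 0.75 (adjusted p = 0.0231), and Osm, an IL-6 family cytokine, by 0.67 (adjusted p = 0.0465). Of the 23 receptor chains 2 rose and 1 fell, beside the same shares of all genes, with a median of 0.23. The number that fell was thus near the background. Csf2rb, the common beta chain for GM-CSF, IL-3 and IL-5 on which Jak2 acts, rose from 117.61 and 134.18 in AAV-GFP to 186.17 and 228.62 TPM, by 0.71 (adjusted p = 0.0343), and Il3ra rose by 0.56 (adjusted p = 0.0397). Il4ra fell from 268.63 and 280.92 in AAV-GFP to 217.52 and 205.01 TPM (-0.38, adjusted p = 0.0431).

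Of the 18 negative regulators 2 rose and 1 fell, beside 2.23% and 4.10% of all genes tested, so the number that fell was near the background. Their median was -0.03 beside -0.10 over all genes. Socs3 rose from 143.9 and 181.18 in AAV-GFP to 273.49 and 297.81 TPM, by 0.82 (limma, adjusted p = 0.0272), and Socs1 by 0.83 (adjusted p = 0.0263). Pias3, named as an inhibitor of STAT3 binding to DNA, fell from 13.49 and 14.34 in AAV-GFP to 8.17 and 9.17 TPM (-0.63, adjusted p = 0.0413). Of the 12 cofactors 0 passed in either direction, with a median of -0.18.

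Of the 20 ISGF3 targets 9 rose and 0 fell past the threshold, beside 2.23% and 4.10% of all genes tested. Their median was 0.34 beside -0.10 over all genes. The list was split, with 12 of 20 higher in both AAV-Shisa3 samples and 5 lower in both, against 18.2% and 41.2% of all genes. Lower were Zbp1 (-0.29), Oas1a (-0.22), Oasl2 (-0.21), Irf7 (-0.14) and Irf9 (-0.06), while Isg15 was at -0.04 with overlapping groups. Cxcl10 rose most, from 177.37 and 191.65 in AAV-GFP to 940.67 and 654.36 TPM, by 2.08 (limma, adjusted p = 0.0142), followed by Rsad2 (1.30, adjusted p = 0.0113), Cmpk2 (1.2, adjusted p = 0.0179), Ifit2 (0.85, adjusted p = 0.0237) and Ifit1 (0.72, adjusted p = 0.0295). Of the 18 STAT3 targets 9 rose and 1, Il4ra, fell, with a median of 0.40. Vegfa, an angiogenic growth factor, rose from 5.39 and 5.97 in AAV-GFP to 19.01 and 20.77 TPM, by 1.64 (adjusted p = 0.0113), and Fos (0.67, adjusted p = 0.0206) and Bcl3 (0.61, adjusted p = 0.0343) rose with Socs3 and Il10. Of the 6 STAT5 targets 1 rose, Osm, and 1 fell, Cdkn1a (-0.33, adjusted p = 0.0495), with a median of 0.20.

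Of the 8 STAT6 targets tested 4 rose and 0 fell, with a median of 0.40. Where a gene had to reach 1 TPM in all samples, 3 of 7 rose and the median was 0.017. Tgm2, a transglutaminase used as a marker of alternative macrophages, rose from 113.85 and 114.18 in AAV-GFP to 307.35 and 322.19 TPM, by 1.46 (limma, adjusted p = 0.00962). The chemokine Ccl24 rose by 1.76 (adjusted p = 0.0435) from values below 2 TPM, and Clec10a by 0.92 (adjusted p = 0.0443) and Chil3 by 0.79 (adjusted p = 0.0296). The 4 that did not pass were Arg1 (0.02), Pparg (-0.05), Klf4 (-0.11) and Mrc1 (-0.16). Mrc1 was lower in both AAV-Shisa3 samples, and the groups overlapped for Arg1, Pparg and Klf4. The list thus did not move as a whole. The summed level of 8 neutrophil markers was 545 and 514 TPM in AAV-GFP and 968 and 599 TPM in AAV-Shisa3, so the rise was mostly that of AAV-Shisa3 sample 1. All 7 markers tested were higher in both AAV-Shisa3 samples, against 18.2% of all genes tested. Of them 1, Camp, passed the threshold (none without the trend or with no filter), where 2.23% of all genes were higher. Retnlg, at 0.21 and 0.69 TPM in AAV-GFP and 2.03 and 1.24 TPM in AAV-Shisa3, passed the filter only through AAV-Shisa3, which fixed its direction. No neutrophil marker was at 0 in all AAV samples. The part of these markers in the result was not tested.

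**Figure D5:**
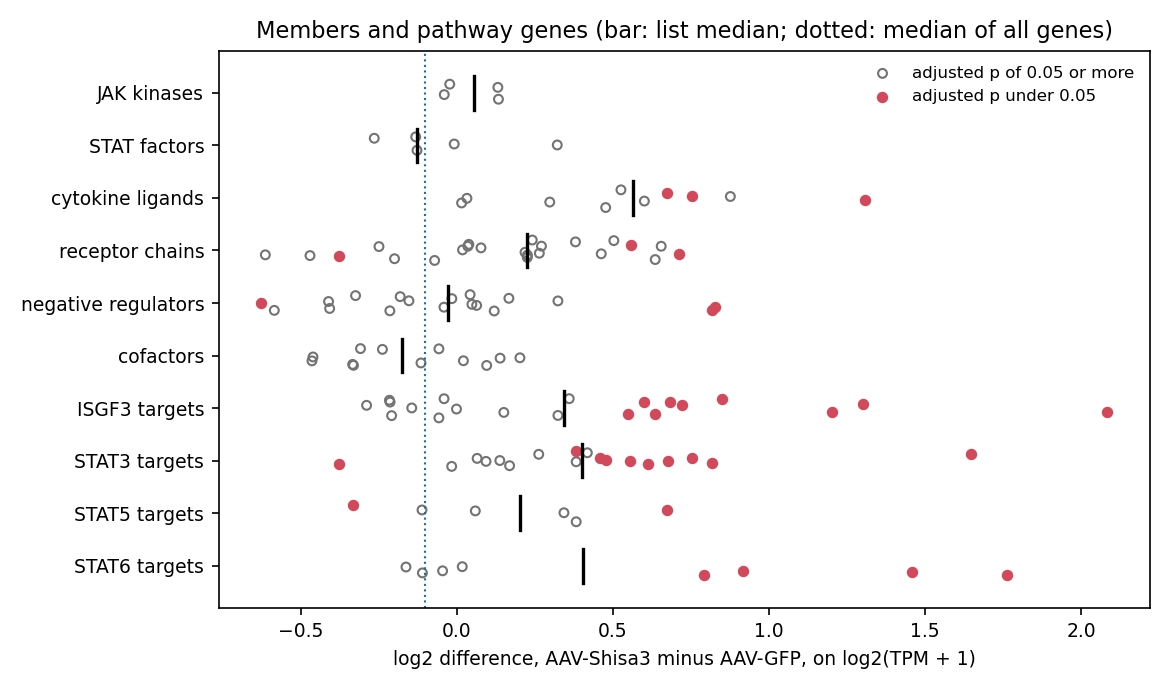
Each point is a gene, placed by its log2 difference between AAV-Shisa3 and AAV-GFP (x axis, on log2(TPM + 1)) within the members and pathway lists (y axis), with filled red points past an adjusted p of 0.05, bars at list medians and a dotted line at the median of all genes (-0.10). No point of the JAK kinases or STAT factors is filled, while 9 of 20 ISGF3 targets and 10 of 18 STAT3 targets are.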

How the data were processed

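RNA was sequenced as paired-end reads. The aligner, the counter and their annotation are not given in the sources used here, and the submitters' processing notes name the build mm9. The LPS table holds a signal per gene as the authors deposited it, namely reads over a factor that is shared by all genes of a library. All values were whole multiples of 1 step per library (100% within 0.02 of a read), so the reads were recovered. For the AAV experiment the deposited values were read as TPM because they sum to between 999778 and 999818 in each sample. This unit is inferred, and the depth is unknown.

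Genes with a mean of at least 1 were kept, and differences were taken on log2(value + 1), which understates changes of low genes. A gene near 0 in some samples passed this filter only through the others, which fixed the direction of its difference. LPS libraries were compared without a test, with 95% exact counting intervals. AAV groups were compared with limma's trended test (limma 3.58.1, R 4.3.3, Benjamini-Hochberg, threshold 0.05). edgeR 4.0.16 gave the TMM factors. The rest was done in Python 3.11.15 (scipy 1.17.1, pandas 2.3.3, numpy 2.4.6) with plots in matplotlib 3.10.9. Positions and merged exon lengths are from GENCODE M21 on GRCm38, which held 99.2% of the gene identifiers of the LPS table (83.8% with the same version), and promoters from RefSeq on GRCm38.p6.

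The members, gene lists and tests were chosen with earlier results of these data known, and genes may stand on more than 1 list. Named were all 9 members, Shisa3, up to 5 genes per pathway list past the AAV threshold and up to 5 with the largest difference at 4 h of LPS, list genes at 0, and for 4 members the 3 nearest genes other than predicted genes. Marker lists were for macrophages, T cells, NK cells, B cells, neutrophils, dendritic cells, fibroblasts and proliferation. The degenerate NF-κB consensus was added after the other motifs had been searched. Alternatives were other scalings, pseudocounts and filters, limma without the trend, the replicate number as a block and leaving out each AAV sample.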

Additional observations from a re-analysis of the deposited data

How the results depend on the processing

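No member passed the AAV threshold in the main fit or in any of the alternatives run, namely limma without the trend, centring, no filter, a minimum of 1 TPM per sample, a pseudocount of 0.1, the replicate block and leaving out each sample. The genes past it numbered 250 higher and 460 lower. They numbered 1 and 4 without the trend, 410 and 230 with samples centred on their medians, and 0 and 0 with no filter on low values, where 1118 and 2411 had an unadjusted p under 0.05. Without AAV-GFP replicate 1 or 2 they were 0 and 0, without AAV-Shisa3 replicate 1 they were 20 and 5, and without AAV-Shisa3 replicate 2 they were 32 and 10, where the lone sample is assumed to vary like the others. With the replicate number as a block 424 genes were higher and 851 lower. Of the pathway genes 35 were then higher and 9 lower, and Stat5a alone among the members had an unadjusted p under 0.05, with an adjusted p from limma of 0.120. The deviations of the same-numbered samples correlated at 0.188 across 11218 genes, and with 2 pairs and no label that explains the number this does not show that the numbers pair the samples. The small negative differences of Jak1, Tyk2 and Stat3 turned to 0.093, 0.075 and 0.11 with centring. They also turned with some samples left out, ranging from -0.092 to 0.046 for Jak1, from -0.12 to 0.044 for Tyk2 and from -0.044 to 0.026 for Stat3. Of the LPS counts, equal library totals moved the genes at least 2-fold higher and lower from 3668 and 4406 to 2377 and 7290 at 2 h and from 3958 and 4207 to 2304 and 7985 at 4 h. The members at least 2-fold higher then went from 7 to 4 at 2 h and at 4 h, and those lower from 0 to 1 at 4 h and from 0 to 1 at 4 h against 2 h. Between 2 h and 4 h, 3197 genes were higher and 2710 lower. A pseudocount of 5 gave 1830 and 1551, and a mean of at least 5 gave 2110 higher. All 27 member differences kept their sign under the LPS alternatives run, other than equal library totals, where 25 did. With 1 library per time point no replicate error is known, and unknown depth prevents counting intervals for the AAV samples.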

Other observations

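Other marker lists gave the following values. In the AAV samples the summed level of 6 dendritic cell markers ranged from 2.68 to 3.92 TPM, that of 5 fibroblast markers from 8.10 to 14.8 TPM and that of 5 B cell markers from 8.07 to 13.8 TPM. The 10 T cell markers summed to 19.3 to 23.3 TPM and the 6 NK cell markers to 0.03 to 0.25 TPM. The 5 proliferation markers summed to 57.2 and 55.4 TPM in AAV-GFP and to 85.2 and 49.5 TPM in AAV-Shisa3. None of the dendritic cell, fibroblast, B cell, T cell or proliferation markers tested passed the threshold (limma), and no NK cell marker reached the filter. In the LPS libraries the summed scaled count of the dendritic cell markers was 72.0 at 0 h, 170 at 2 h and 310 at 4 h, of which Ccr7 alone gave 12.9, 63.3 and 262. At 4 h 2 of the 6 were at least 2-fold higher and 2 lower, against 22.2% and 23.6% of all genes kept, with a median of 0.03. The summed scaled count of the neutrophil markers was 3932, 8001 and 5731.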
